A study of Homo sapiens with 9 samples.

Results

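The genes examined are 36 genes around NRF2, the transcription factor encoded by NFE2L2. They comprise NFE2L2 with its regulators and partners, targets of NRF2, the enzymes of glutathione synthesis and use, the thioredoxin system, and enzymes that make NADPH in the pentose phosphate pathway and beside it. They were taken by gene symbol from a fixed list, and all 36 were found among the 27407 features of the expression table and passed the filter on low counts. RNA sequencing had been done on 9 libraries of Weri-RB1/CRP, which the labels give as a human retinoblastoma line with carboplatin resistance. The 3 groups of 3 libraries carried a control short hairpin (shNC) or one of 2 hairpins against the long noncoding RNA gene SNHG1 (shSNHG1#1, shSNHG1#2), all in the same parental line. The labels give no batch, no time after the hairpins were introduced, and no statement on whether a group was 1 clone or a pool, and nothing says that the libraries of a group came from separate cultures. The p-values below therefore measure only the spread between these libraries, which may be technical. No feature under the symbol SNHG1 was among those read here, so the knockdown itself was not checked.

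KEAP1 holds NRF2 in the cytoplasm and hands it to a ubiquitin ligase, and electrophiles or oxidants release it. Free NRF2 enters the nucleus, pairs with a small MAF protein (MAFF, MAFG or MAFK) and binds antioxidant response elements, while BACH1 pairs with the same MAF proteins and represses the same elements. The targets make glutathione, reduce peroxides, conjugate and export drugs, and supply NADPH, and the pathway is known for its part in resistance to platinum compounds in cancer cells.

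Libraries held 21502093 to 21606498 estimated counts each. Of 11 markers of retinoblastoma and photoreceptor precursors, 10 matched the table, and 8 of these stayed below 1 FPKM (sequenced fragments per transcript length, scaled to the library's total) in every library, with CRX at most 0.030 FPKM. The summed level of these 10 markers was 20.5 to 22.2 FPKM in shNC, 18.9 to 19.3 with shSNHG1#1 and 18.7 to 19.7 with shSNHG1#2, nearly all of it GNAT2. The 5 epithelial markers, led by KRT8 and KRT18, summed to 1633 to 1634 FPKM in shNC, 1510 to 1602 with shSNHG1#1 and 1515 to 1606 with shSNHG1#2, while most defining markers of the labelled cell type were near 0. By edgeR's test, 1 of these 5 (EPCAM) was higher with each hairpin, and 3 were lower with shSNHG1#1 and 4 with shSNHG1#2. The 4 retinal glia markers summed to 719 to 728 FPKM in shNC, 467 to 490.4 with shSNHG1#1 and 471 to 485 with shSNHG1#2. Nearly all of that sum was VIM, the intermediate filament vimentin, the only one of the 4 to pass the test, at log2 fold changes of -0.65 and -0.67, while GFAP and GLUL stayed below 1 FPKM in every library. Replicate 1 of shSNHG1#1 stood apart in the 4 fibroblast markers, which summed to 18.8 FPKM there and to 1.63 to 2.96 FPKM in the other libraries, with DCN at 9.80 FPKM. CD68, listed as a leukocyte marker, fell from 268 to 286 FPKM in shNC to 83.5 to 90.0 with shSNHG1#1 and 121 to 124 with shSNHG1#2, while the other 3 leukocyte markers stayed below 1 FPKM in every library. The part of these marker differences in the results below was not tested, other than by leaving out libraries. In bulk RNA, fewer cells of a type and less RNA per cell cannot be told apart.

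The promoters of the subunit genes of glutamate-cysteine ligase are shown because the 2 genes moved in opposite directions. Those of IDH1 and EPHX1 are shown as 2 examples of genes that rose and had a match to the motif given below. For these 2 genes only the start site with the match is shown. ME1 also rose with both hairpins and had matches, but is not shown. GPX1 and TALDO1 rose with both as well, had no match and are not shown. Each is the 250 bases before the start of transcription, 5′ to 3′ on the strand of the gene, from RefSeq in assembly GRCh38.p14. GCLC, GCLM and IDH1 lie on the minus strand and EPHX1 on the plus strand. Capitals mark matches to TGACNNNGC, the core of the antioxidant response element, on either strand.
GCLC promoter, chr6:53545102-53545351: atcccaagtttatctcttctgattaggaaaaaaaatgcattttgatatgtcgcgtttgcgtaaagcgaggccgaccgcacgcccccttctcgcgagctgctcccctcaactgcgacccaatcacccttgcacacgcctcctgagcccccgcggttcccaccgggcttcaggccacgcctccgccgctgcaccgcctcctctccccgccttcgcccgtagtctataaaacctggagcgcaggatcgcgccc
GCLM promoter, chr1:93909431-93909680: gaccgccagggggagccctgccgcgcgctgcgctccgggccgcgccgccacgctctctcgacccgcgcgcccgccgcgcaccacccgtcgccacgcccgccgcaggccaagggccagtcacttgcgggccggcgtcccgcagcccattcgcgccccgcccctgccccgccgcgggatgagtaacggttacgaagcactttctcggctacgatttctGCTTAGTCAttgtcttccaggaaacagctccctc
IDH1 promoter, chr2:208255072-208255321: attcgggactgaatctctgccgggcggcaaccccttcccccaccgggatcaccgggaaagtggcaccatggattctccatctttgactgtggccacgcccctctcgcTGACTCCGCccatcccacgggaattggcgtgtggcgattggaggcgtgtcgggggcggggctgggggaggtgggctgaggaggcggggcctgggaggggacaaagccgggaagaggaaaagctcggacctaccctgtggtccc
EPHX1 promoter, chr1:225825104-225825353: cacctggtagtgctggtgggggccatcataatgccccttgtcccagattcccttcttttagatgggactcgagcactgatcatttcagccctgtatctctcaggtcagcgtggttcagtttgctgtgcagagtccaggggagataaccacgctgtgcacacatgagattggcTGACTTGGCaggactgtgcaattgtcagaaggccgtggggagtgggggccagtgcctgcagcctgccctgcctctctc

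The match upstream of GCLM, GCTTAGTCA, is on the opposite strand and begins 34 bases before the start. The match of IDH1, TGACTCCGC, begins 143 bases before, and that of EPHX1, TGACTTGGC, begins 78 bases before. No match was found in these letters of GCLC, which says nothing of elements elsewhere. IDH1 has 2 start sites in the table and EPHX1 has 3, and in each gene only the start shown had a match. Windows of 300 bases (250 before the start and 50 after) were in the table for 29 of the 36 genes and not for MAFK, HMOX1, GSS, GSR, PRDX1, PRDX6 and CBR3. Of these 29 genes, 14 (48.3%) had a match in at least 1 window, beside 16.1% of the 27305 genes with a window. By window, the shares were 35.7% of 42 and 13.3% of 35116. Because the list was drawn up to include targets of NRF2, which binds such elements, these higher shares are no independent result. Matches were found in 4 of the 6 genes that rose with both hairpins and had a window (GCLM, ME1, IDH1 and EPHX1) and in 3 of the 11 that fell with both (KEAP1, MAFF and TXNRD1). A match describes letters only and names no factor that binds there.

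Against shNC, the 36 genes split in both directions with each hairpin. With shSNHG1#1, 15 of 36 rose and 13 fell at an adjusted p below 0.05, beside 24.5% of all 18767 tested features that rose and 23.5% that fell. With shSNHG1#2, 9 rose and 16 fell, beside 23.3% and 22.8% of all features. Their median log2 fold change was 0.041 with shSNHG1#1 and -0.023 with shSNHG1#2, beside 0.023 and 0.011 over all features tested. Without replicate 1 of shSNHG1#1, the library with the high fibroblast markers, 14 rose and 13 fell with that hairpin. Both comparisons use the same 3 shNC libraries. With both hairpins 9 genes rose and 13 fell, beside 20.3% and 19.7% of all features, none moved in opposite directions, and 5 passed with neither. The 9 were GCLM, GSR, GPX1, PRDX1, PRDX6, TALDO1, ME1, IDH1 and EPHX1. The 13 were all 6 regulators, HMOX1, OSGIN1, GCLC, TXNRD1, TKT, UGDH and GSTK1. In either direction 77.8% of the 36 genes passed with shSNHG1#1 and 69.4% with shSNHG1#2, beside 48.1% and 46.2% of all features. The features beside them were not matched for expression level, here or for the other pathway genes below. The largest log2 fold changes were those of GCLC, OSGIN1 and BACH1, each a fall. With scaling by library totals alone, 16 of the 36 genes rose and 14 fell with shSNHG1#2. The split over all called features then moved from 50.5% higher to 60.9% higher, while no gene of the 36 past the threshold changed direction.

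**Figure D1:**
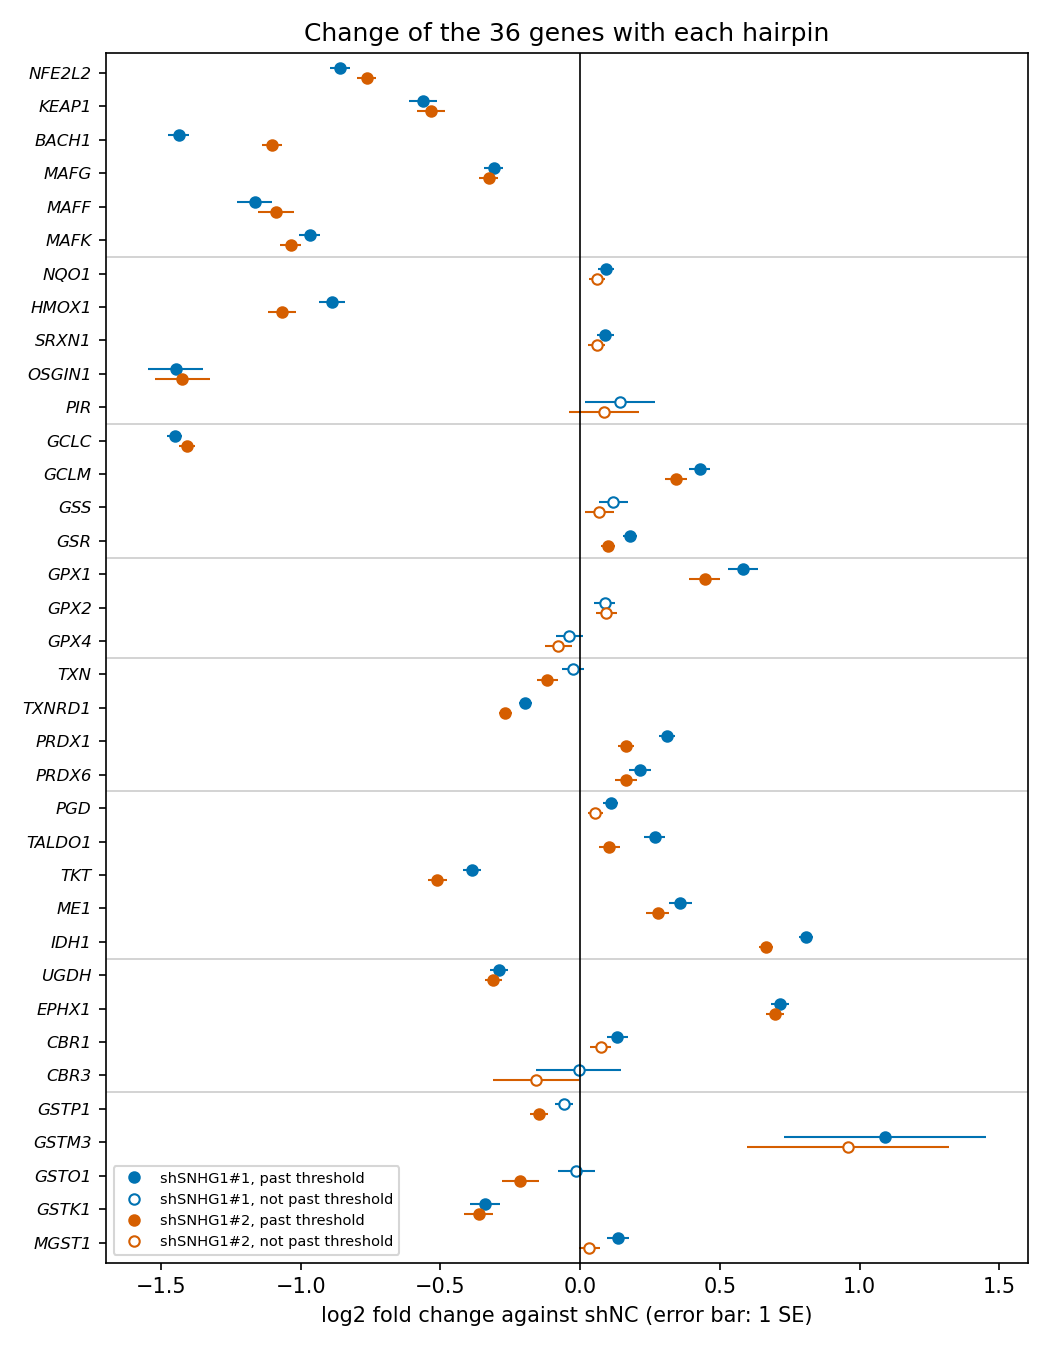
Fitted log2 fold change (horizontal axis) of each of the 36 genes with shSNHG1#1 (blue) and shSNHG1#2 (orange) against shNC, grouped by role with grey lines between groups. Bars are 1 standard error, filled points passed an adjusted p of 0.05 and open points did not. All 6 regulators lie left of 0, and GCLC and GCLM lie on opposite sides of it.

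All 6 genes of NRF2 and its regulators fell with both hairpins, the activator as well as its repressors and partners. Their log2 fold changes ran from -1.44 to -0.31 with shSNHG1#1 and from -1.10 to -0.33 with shSNHG1#2. NFE2L2 stood at 134, 126 and 131 FPKM in shNC, 73.1, 76.5 and 77.3 FPKM with shSNHG1#1 and 79.6, 83.95 and 84 FPKM with shSNHG1#2. The shNC libraries lay above all 6 hairpin libraries, and the shSNHG1#2 libraries above those of shSNHG1#1. For NFE2L2, log2 fold changes were -0.86 ± 0.034 (SE, adjusted p = 9.27e-09) with shSNHG1#1 and -0.76 ± 0.034 (SE, adjusted p = 2.98e-08) with shSNHG1#2, falls of 1.81-fold and 1.70-fold.

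KEAP1, the adaptor that directs NRF2 to degradation, fell as well, at 16.9, 16.3 and 17.03 FPKM in shNC, 11.5, 11.1 and 11.99 FPKM with shSNHG1#1 and 12.7, 11.6 and 11.7 FPKM with shSNHG1#2. Again no hairpin library reached the shNC range, and its log2 fold changes were -0.56 ± 0.050 (SE, adjusted p = 4.80e-06) with shSNHG1#1 and -0.53 ± 0.050 (SE, adjusted p = 8.46e-06) with shSNHG1#2. BACH1, the repressor of NRF2 targets and of haem oxygenase in particular, showed the largest fall of the regulators, at 41.1, 39.6 and 39.9 FPKM in shNC, 14.1, 14.8 and 15.5 FPKM with shSNHG1#1 and 19.3, 19.99 and 20.1 FPKM with shSNHG1#2. The 3 groups did not overlap, with shSNHG1#2 between the other groups. For BACH1, log2 fold changes were -1.44 ± 0.036 (SE, adjusted p = 3.18e-10) with shSNHG1#1 and -1.10 ± 0.036 (SE, adjusted p = 2.65e-09) with shSNHG1#2. Between the hairpins BACH1 was 1.26-fold higher with shSNHG1#2 (log2 difference 0.33 ± 0.037 SE, adjusted p = 7.72e-04), and this call was kept with each of the 9 libraries left out (adjusted p at most 0.00568).

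The small MAF genes, which encode the partners shared by NRF2 and BACH1, fell to different degrees. MAFF stood at 24.5, 23.1 and 24.2 FPKM in shNC, 12.3, 10.4 and 11.1 FPKM with shSNHG1#1 and 13.01, 11.6 and 11.7 FPKM with shSNHG1#2, and its log2 fold changes were -1.17 ± 0.064 (SE, adjusted p = 1.12e-07) with shSNHG1#1 and -1.09 ± 0.064 (SE, adjusted p = 2.30e-07) with shSNHG1#2. MAFK, the highest of the 3 in level, stood at 95.96, 97.7 and 105 FPKM in shNC, 54.9, 49.8 and 52.9 FPKM with shSNHG1#1 and 51.2, 49.4 and 49.9 FPKM with shSNHG1#2. For MAFK, log2 fold changes were -0.97 ± 0.037 (SE, adjusted p = 7.20e-09) with shSNHG1#1 and -1.04 ± 0.037 (SE, adjusted p = 5.97e-09) with shSNHG1#2, falls of 1.96-fold and 2.05-fold. MAFG moved least, at 26.2, 27.4 and 27.5 FPKM in shNC, 22.5, 22.1 and 22.96 FPKM with shSNHG1#1 and 23.5, 22.7 and 22.2 FPKM with shSNHG1#2. For MAFG, log2 fold changes were -0.31 ± 0.035 (SE, adjusted p = 2.69e-05) with shSNHG1#1 and -0.33 ± 0.035 (SE, adjusted p = 2.04e-05) with shSNHG1#2. For NFE2L2, KEAP1 and the MAF genes, no difference between the hairpins passed the threshold (adjusted p = 0.196 for NFE2L2, the smallest of these).

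**Figure D2:**
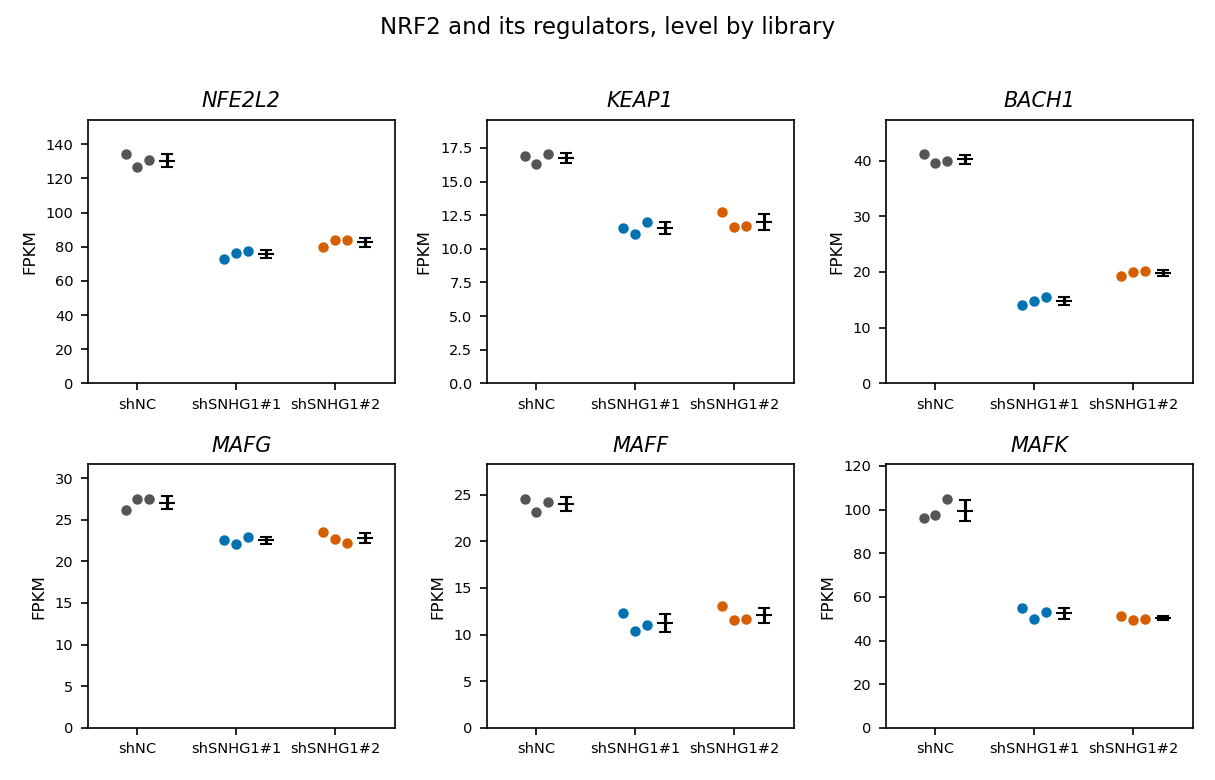
FPKM (vertical axes, from 0) of NFE2L2, KEAP1, BACH1, MAFG, MAFF and MAFK in each library of shNC (grey), shSNHG1#1 (blue) and shSNHG1#2 (orange), with the mean and SD of the 3 libraries in black. In every panel the shNC points lie above all hairpin points, and in those of NFE2L2 and BACH1 the 2 hairpin groups are apart as well.

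Among 5 classic targets, HMOX1 and OSGIN1 fell with both hairpins while NQO1, SRXN1 and PIR showed small differences or none past the threshold. HMOX1, haem oxygenase 1, stood at 118, 122 and 126 FPKM in shNC, 71.05, 63.4 and 70.4 FPKM with shSNHG1#1 and 63.9, 58.2 and 61.2 FPKM with shSNHG1#2. All hairpin libraries lay below shNC, and its log2 fold changes were -0.89 ± 0.048 (SE, adjusted p = 1.01e-07) with shSNHG1#1 and -1.07 ± 0.049 (SE, adjusted p = 3.56e-08) with shSNHG1#2. OSGIN1, an oxidative stress induced growth inhibitor, fell the most of the 5, at 29.6, 27.4 and 29.9 FPKM in shNC, 12.6, 10.2 and 10.2 FPKM with shSNHG1#1 and 12.7, 9.96 and 11.3 FPKM with shSNHG1#2. The hairpin groups overlapped each other and lay well below shNC. For OSGIN1, log2 fold changes were -1.45 ± 0.098 (SE, adjusted p = 5.66e-07) with shSNHG1#1 and -1.42 ± 0.098 (SE, adjusted p = 7.75e-07) with shSNHG1#2, falls of 2.73-fold and 2.68-fold.

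NQO1, the quinone reductase often read as an index of NRF2 activity, was the second highest of the 36 genes in shNC at 649.8 ± 8.39 FPKM (SD, n = 3). It had 680.2 ± 34.3 FPKM with shSNHG1#1 and 657 ± 31.5 with shSNHG1#2, and libraries of all 3 groups overlapped. For NQO1, log2 fold changes were 0.091 ± 0.028 with shSNHG1#1 (SE, adjusted p = 0.0214) and 0.060 ± 0.028 with shSNHG1#2 (SE, adjusted p = 0.111). The call with shSNHG1#1 was lost without shNC replicate 1 (adjusted p = 0.0755), 2 (0.0970) or 3 (0.0779), shSNHG1#1 replicate 3 (0.165) or shSNHG1#2 replicate 2 (0.0673). With shSNHG1#2 a call was gained without its own replicate 3 (adjusted p = 0.0307).
SRXN1, sulfiredoxin, which restores overoxidised peroxiredoxins, had 80.5 ± 2.61, 88.5 ± 2.87 and 87.7 ± 0.447 FPKM in shNC, shSNHG1#1 and shSNHG1#2. For SRXN1, log2 fold changes were 0.090 ± 0.030 with shSNHG1#1 (SE, adjusted p = 0.0275) and 0.059 ± 0.030 with shSNHG1#2 (SE, adjusted p = 0.135). The first of these was lost with each library left out except shNC replicate 3 and shSNHG1#1 replicate 2 (adjusted p 0.0576 to 0.200 in the other 7). PIR, pirin, ranged from 8.07 to 11.3 FPKM over the 9 libraries and passed with neither hairpin (adjusted p = 0.381 and 0.617).

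The subunits of glutamate-cysteine ligase, the rate-limiting enzyme of glutathione synthesis, moved in opposite directions. GCLC encodes the catalytic subunit and GCLM the modifier subunit, which raises the affinity of the enzyme for glutamate. GCLC stood at 149.9, 152 and 149 FPKM in shNC, 54.3, 56.8 and 56.3 FPKM with shSNHG1#1 and 58.4, 58.7 and 57.95 FPKM with shSNHG1#2. The spread within each group was under 3 FPKM, and the shNC libraries stood far above the rest. For GCLC, log2 fold changes were -1.45 ± 0.028 (SE, adjusted p = 3.80e-11) with shSNHG1#1 and -1.41 ± 0.028 (SE, adjusted p = 5.78e-11) with shSNHG1#2, falls of 2.73-fold and 2.65-fold that were the largest fall of the 36 genes with shSNHG1#1 and the second largest, after OSGIN1, with shSNHG1#2.

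GCLM stood at 46.4, 45.95 and 42.8 FPKM in shNC, 58.96, 62.2 and 67.7 FPKM with shSNHG1#1 and 51.6, 52.2 and 55.9 FPKM with shSNHG1#2. All hairpin libraries lay above shNC, and on the FPKM scale the hairpin groups did not overlap either. For GCLM, log2 fold changes were 0.43 ± 0.039 (SE, adjusted p = 5.52e-06) with shSNHG1#1 and 0.34 ± 0.039 (SE, adjusted p = 3.49e-05) with shSNHG1#2, rises of 1.34-fold and 1.27-fold. On the scale of counts the hairpins differed by -0.085 ± 0.038 (log2, SE), with an adjusted p of 0.315. The 2 scales differ by the transcript length that count and FPKM of GCLM together imply, which was 2798 to 2986 bases with shSNHG1#2, against 2465 to 2688 in shNC and 2510 to 2580 with shSNHG1#1.

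The ratio of GCLC to GCLM, both in FPKM, was 3.23, 3.30 and 3.48 in shNC, 0.921, 0.913 and 0.831 with shSNHG1#1 and 1.13, 1.12 and 1.04 with shSNHG1#2. In FPKM, the RNA of GCLC was thus well above that of GCLM in every library of shNC. GCLC was below GCLM in every library of shSNHG1#1 and just above it in every library of shSNHG1#2. On which side of 1 the hairpin groups fall depends on the implied length of GCLM, which was longer with shSNHG1#2. The means were 3.34 ± 0.126, 0.888 ± 0.0496 and 1.10 ± 0.0526 (SD, n = 3). As a log2 difference in the mean ratio, shSNHG1#1 was at -1.91 and shSNHG1#2 at -1.60 against shNC, 3.76-fold and 3.04-fold lower. An exact two-sided permutation test gave p = 0.1 for each, the smallest that 3 against 3 libraries allow. Between the hairpins the log2 ratio was 0.31 higher with shSNHG1#2, also at the smallest exact permutation p of 0.1. From CPM (counts scaled to library size) in place of FPKM, this last difference was 0.13 and those against shNC were -1.88 and -1.75. Over all 3 groups the exact permutation test of the F statistic gave p = 0.00357, the smallest that its 1680 assignments allow. The pair was chosen with earlier results of these data known, so these p-values describe the separation of these libraries and are no independent test.

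**Figure D3:**
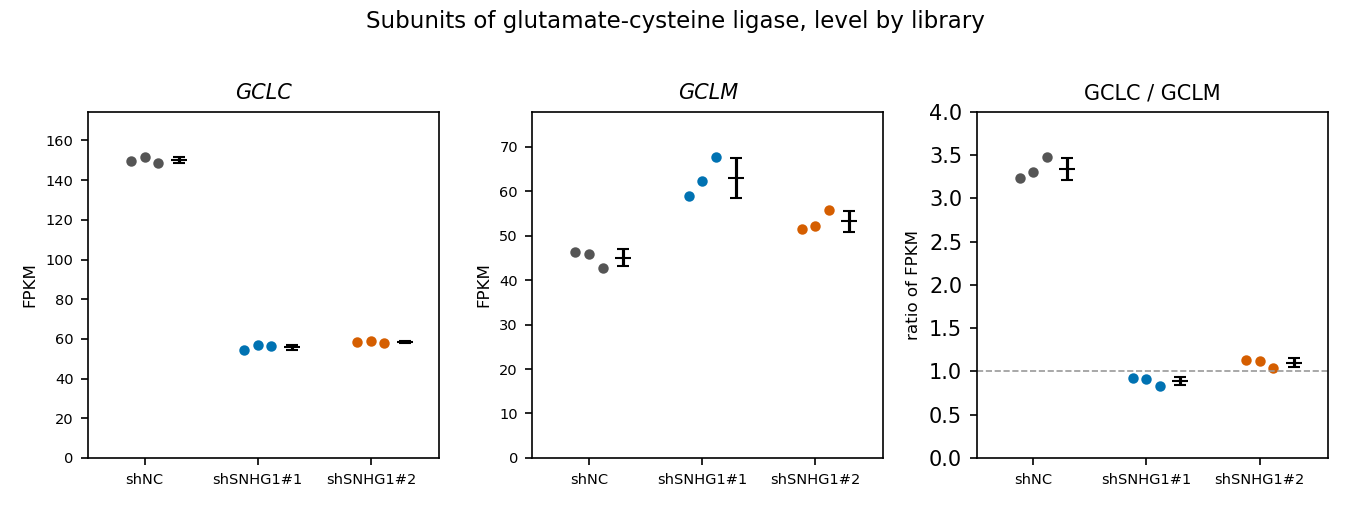
FPKM of GCLC and of GCLM (left and middle, axes from 0) and their ratio (right, dashed line at 1) in each library of shNC (grey), shSNHG1#1 (blue) and shSNHG1#2 (orange), with mean and SD in black. GCLC is lower and GCLM higher in every hairpin library than in any shNC library, and the ratio goes from 3.34 in shNC to 0.888 and 1.10.

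The remaining genes of glutathione synthesis and recycling showed smaller differences. GSS, glutathione synthetase, which adds glycine in the second step, ranged from 19.8 to 25.1 FPKM and passed with neither hairpin (adjusted p = 0.0846 and 0.316), although its shNC libraries all lay below the hairpin libraries in FPKM. GSR, the reductase that returns oxidised glutathione to its reduced form at the cost of NADPH, stood at 71.7, 77.1 and 75.2 FPKM in shNC, 86.5, 87.8 and 83.4 FPKM with shSNHG1#1 and 82.8, 89.3 and 79.9 FPKM with shSNHG1#2. For GSR, log2 fold changes were 0.18 ± 0.025 (SE, adjusted p = 1.52e-04) with shSNHG1#1 and 0.098 ± 0.025 (SE, adjusted p = 0.00841) with shSNHG1#2. The call with shSNHG1#2 was lost without shNC replicate 1 (adjusted p = 0.0615) or shSNHG1#2 replicate 2 (0.0586).

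Of 3 glutathione peroxidases, GPX1 rose with both hairpins. GPX1, which reduces hydrogen peroxide in the cytosol and mitochondria, stood at 85.9, 87.6 and 87.7 FPKM in shNC, 143, 128 and 132 FPKM with shSNHG1#1 and 131, 119 and 120.4 FPKM with shSNHG1#2. The lowest hairpin library was well above the highest shNC library, and its log2 fold changes were 0.58 ± 0.055 (SE, adjusted p = 6.93e-06) with shSNHG1#1 and 0.45 ± 0.055 (SE, adjusted p = 6.46e-05) with shSNHG1#2. GPX2, the gastrointestinal form, averaged 350.2 ± 15.4 FPKM in shNC, 385 ± 11.05 with shSNHG1#1 and 391 ± 3.22 with shSNHG1#2 (SD, n = 3). GPX2 missed the threshold with both hairpins (adjusted p = 0.0758 and 0.0613) and passed it with both without shNC replicate 2 (0.0222 and 0.0193).
GPX4, which reduces lipid peroxides and guards against ferroptosis, averaged 108 ± 1.58, 109 ± 3.66 and 108 ± 6.88 FPKM in the same order, with log2 differences of -0.039 ± 0.049 and -0.078 ± 0.049 (SE) that missed the threshold. Without shSNHG1#2 replicate 1, GPX4 passed as lower with that hairpin (log2 fold change -0.14, adjusted p = 0.00968).

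In the thioredoxin system, the peroxiredoxins PRDX1 and PRDX6 rose and the reductase TXNRD1 fell with both hairpins. TXNRD1, which reduces thioredoxin with NADPH, stood at 302, 302 and 305 FPKM in shNC, 271, 272 and 287 FPKM with shSNHG1#1 and 261, 265 and 267 FPKM with shSNHG1#2, and its log2 fold changes were -0.20 ± 0.022 (SE, adjusted p = 3.16e-05) with shSNHG1#1 and -0.27 ± 0.022 (SE, adjusted p = 3.54e-06) with shSNHG1#2. PRDX1, a peroxide-scavenging enzyme reduced by thioredoxin, stood at 362, 345 and 343 FPKM in shNC, 449, 435 and 459.8 FPKM with shSNHG1#1 and 405, 415 and 409 FPKM with shSNHG1#2. No 2 groups overlapped, with shSNHG1#2 in the middle. For PRDX1, log2 fold changes were 0.31 ± 0.029 (SE, adjusted p = 6.08e-06) with shSNHG1#1 and 0.16 ± 0.029 (SE, adjusted p = 8.07e-04) with shSNHG1#2.
Between the hairpins PRDX1 was lower with shSNHG1#2 (log2 difference -0.15 ± 0.028 SE, adjusted p = 0.0190). This call was lost without shSNHG1#1 replicate 1 (adjusted p = 0.0504) or 3 (0.113), or without shSNHG1#2 replicate 1 (0.0652), 2 (0.0818) or 3 (0.107). PRDX6, which uses glutathione in place of thioredoxin, stood at 82.1, 78.7 and 79.2 FPKM in shNC, 96.7, 91.4 and 100.2 FPKM with shSNHG1#1 and 94.6, 97.2 and 90.3 FPKM with shSNHG1#2. The hairpin libraries overlapped each other and lay above shNC, and its log2 fold changes were 0.21 ± 0.039 (SE, adjusted p = 9.26e-04) with shSNHG1#1 and 0.16 ± 0.039 (SE, adjusted p = 0.00528) with shSNHG1#2.
TXN, thioredoxin itself, averaged 401 ± 10.2, 407 ± 11.1 and 387 ± 17.1 FPKM in shNC, shSNHG1#1 and shSNHG1#2, with overlap of all groups. For TXN, log2 fold changes were -0.026 ± 0.038 with shSNHG1#1 (SE, adjusted p = 0.620) and -0.12 ± 0.038 with shSNHG1#2 (SE, adjusted p = 0.0268). The call with shSNHG1#2 was lost without shNC replicate 1 (adjusted p = 0.0770), shSNHG1#2 replicate 2 (0.113) or shSNHG1#2 replicate 3 (0.0891), and with scaling by library totals (0.269).

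Among 5 enzymes of the pentose phosphate pathway and NADPH supply, IDH1, ME1 and TALDO1 rose with both hairpins and TKT fell. TKT and TALDO1, transketolase and transaldolase, both work in the non-oxidative branch, which links pentoses to glycolysis, and they moved in opposite directions. TKT, the highest of the 36 genes in shNC, stood at 695, 713 and 729 FPKM in shNC, 579.6, 536 and 571 FPKM with shSNHG1#1 and 537, 514 and 512 FPKM with shSNHG1#2. The hairpin groups overlapped each other by a narrow margin and lay below shNC, and its log2 fold changes were -0.39 ± 0.034 (SE, adjusted p = 4.16e-06) with shSNHG1#1 and -0.51 ± 0.034 (SE, adjusted p = 6.04e-07) with shSNHG1#2. Between the hairpins TKT missed the threshold (adjusted p = 0.0930), and passed it without shSNHG1#2 replicate 1 (0.0356) and with DESeq2 (0.00636).

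TALDO1 stood at 102, 99.5 and 104 FPKM in shNC, 125, 122 and 127 FPKM with shSNHG1#1 and 115, 117 and 109.9 FPKM with shSNHG1#2. For TALDO1, log2 fold changes were 0.27 ± 0.037 (SE, adjusted p = 1.42e-04) with shSNHG1#1 and 0.10 ± 0.037 (SE, adjusted p = 0.0415) with shSNHG1#2. TALDO1 was also lower with shSNHG1#2 than with shSNHG1#1 (log2 difference -0.16 ± 0.037 SE, adjusted p = 0.0435). The shSNHG1#2 call was lost with each library left out except shSNHG1#2 replicate 3 (adjusted p 0.0634 to 0.165), and the call between the hairpins with each of the 9 (0.0640 to 0.191). With the replicate numbers as a block, these adjusted p-values were 0.0584 and 0.0788.
PGD, an NADPH-producing dehydrogenase of the oxidative branch, averaged 460.5 ± 3.92 FPKM in shNC, 513 ± 4.64 with shSNHG1#1 and 500.4 ± 9.97 with shSNHG1#2 (SD, n = 3). For PGD, log2 fold changes were 0.11 ± 0.026 with shSNHG1#1 (SE, adjusted p = 0.00557) and 0.054 ± 0.026 with shSNHG1#2 (SE, adjusted p = 0.121).

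IDH1, the cytosolic isocitrate dehydrogenase and a source of NADPH, showed the largest rise among the genes above 1 FPKM with shSNHG1#1. IDH1 stood at 56.3, 54.4 and 55.02 FPKM in shNC, 102, 99.2 and 103 FPKM with shSNHG1#1 and 89.1, 92.8 and 94.3 FPKM with shSNHG1#2. The 3 groups were fully apart. For IDH1, log2 fold changes were 0.81 ± 0.026 (SE, adjusted p = 1.66e-09) with shSNHG1#1 and 0.66 ± 0.026 (SE, adjusted p = 9.86e-09) with shSNHG1#2, rises of 1.75-fold and 1.59-fold. Between the hairpins IDH1 was lower with shSNHG1#2 (log2 difference -0.14 ± 0.025 SE, adjusted p = 0.0111). This call was lost without shSNHG1#1 replicate 3 (adjusted p = 0.0735), or without shSNHG1#2 replicate 1 (0.0529), 2 (0.0582) or 3 (0.0531). ME1, the cytosolic malic enzyme, a further source of NADPH, stood at 31.4, 31.9 and 31.1 FPKM in shNC, 39.5, 41.3 and 39.7 FPKM with shSNHG1#1 and 38.9, 36.5 and 41.2 FPKM with shSNHG1#2. All hairpin libraries lay above shNC, and its log2 fold changes were 0.36 ± 0.041 (SE, adjusted p = 3.37e-05) with shSNHG1#1 and 0.28 ± 0.041 (SE, adjusted p = 2.56e-04) with shSNHG1#2.

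Detoxifying oxidoreductases and a hydrolase gave changes in both directions. EPHX1, microsomal epoxide hydrolase, stood at 94.2, 96.1 and 94.6 FPKM in shNC, 165, 159.7 and 164 FPKM with shSNHG1#1 and 169.5, 160.1 and 159 FPKM with shSNHG1#2. The hairpin groups overlapped each other and lay far above shNC. For EPHX1, log2 fold changes were 0.71 ± 0.033 (SE, adjusted p = 3.21e-08) with shSNHG1#1 and 0.70 ± 0.033 (SE, adjusted p = 5.24e-08) with shSNHG1#2, rises of 1.64-fold and 1.62-fold. UGDH, which makes the UDP-glucuronate used in glucuronidation, fell with both hairpins, at 153, 151 and 149 FPKM in shNC, 122, 128 and 124 FPKM with shSNHG1#1 and 118, 126 and 125 FPKM with shSNHG1#2. For UGDH, log2 fold changes were -0.29 ± 0.032 (SE, adjusted p = 2.22e-05) with shSNHG1#1 and -0.31 ± 0.032 (SE, adjusted p = 1.59e-05) with shSNHG1#2.
CBR1, a carbonyl reductase, averaged 54.5 ± 1.65, 61.7 ± 1.89 and 59.8 ± 1.73 FPKM in shNC, shSNHG1#1 and shSNHG1#2, with log2 fold changes of 0.13 ± 0.038 with shSNHG1#1 (SE, adjusted p = 0.0147) and 0.073 ± 0.039 with shSNHG1#2 (SE, adjusted p = 0.151). The call was lost without shNC replicate 1 (adjusted p = 0.0828) or 3 (0.0582) or shSNHG1#1 replicate 3 (0.0961). CBR3, its paralogue, ranged from 4.7 to 6.29 FPKM and passed with neither (adjusted p = 0.980 and 0.442).

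**Figure D4:**
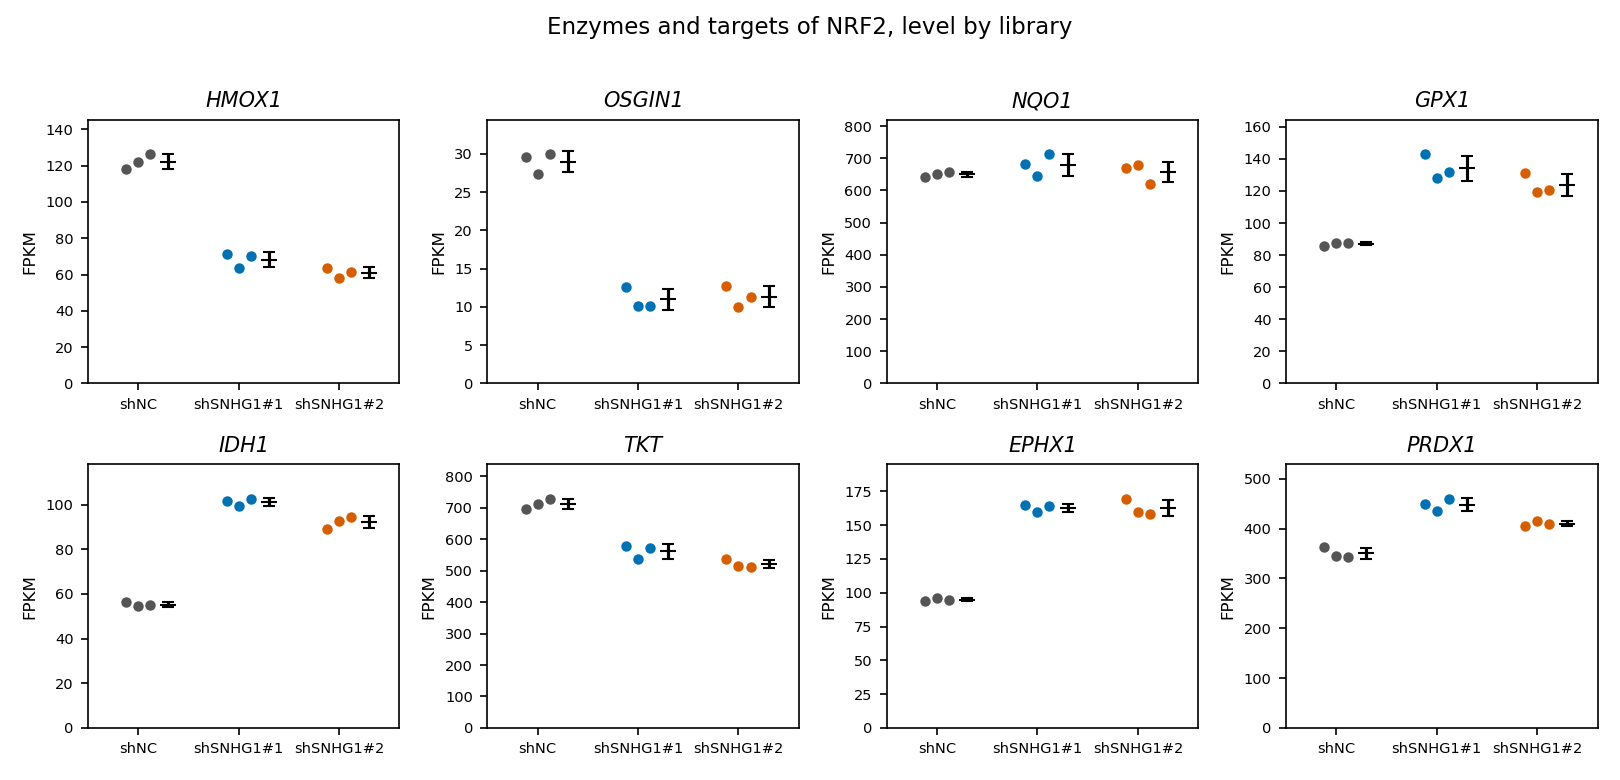
FPKM (vertical axes, from 0) of HMOX1, OSGIN1, NQO1, GPX1, IDH1, TKT, EPHX1 and PRDX1 in each library of shNC (grey), shSNHG1#1 (blue) and shSNHG1#2 (orange), with mean and SD in black. HMOX1, OSGIN1 and TKT are lower and GPX1, IDH1, EPHX1 and PRDX1 higher in all hairpin libraries, while the groups of NQO1 overlap.

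Of 5 glutathione S-transferases, which join glutathione to electrophilic drugs and metabolites, GSTK1 fell with both hairpins. GSTK1, of mitochondria and peroxisomes, stood at 66.4, 69.3 and 66.8 FPKM in shNC, 57.4, 49.4 and 53.4 FPKM with shSNHG1#1 and 53.4, 55.8 and 52.3 FPKM with shSNHG1#2, and its log2 fold changes were -0.34 ± 0.053 (SE, adjusted p = 3.16e-04) with shSNHG1#1 and -0.36 ± 0.053 (SE, adjusted p = 2.22e-04) with shSNHG1#2. GSTP1, the most abundant of the soluble forms measured here, averaged 304 ± 6.12, 301 ± 8.41 and 287 ± 7.62 FPKM in the 3 groups. For GSTP1, log2 fold changes were -0.059 ± 0.033 with shSNHG1#1 (SE, adjusted p = 0.174) and -0.15 ± 0.033 with shSNHG1#2 (SE, adjusted p = 0.00372), and the second call was kept with each library left out.
GSTO1 averaged 36.7 ± 0.208, 37.6 ± 4.04 and 33.2 ± 1.62 FPKM. For GSTO1, log2 fold changes were -0.014 ± 0.066 with shSNHG1#1 (SE, adjusted p = 0.879) and -0.21 ± 0.067 with shSNHG1#2 (SE, adjusted p = 0.0230). The second call was lost without shSNHG1#2 replicate 1 (adjusted p = 0.0609) or 3 (0.0759) and with scaling by library totals (0.112). Between the hairpins GSTO1 missed the threshold (adjusted p = 0.166) and passed it without shSNHG1#1 replicate 2 (0.0359).
MGST1, a membrane-bound form, averaged 373 ± 14.7, 423 ± 7.49 and 399 ± 12.1 FPKM, with log2 fold changes of 0.14 ± 0.039 with shSNHG1#1 (SE, adjusted p = 0.0137) and 0.033 ± 0.039 with shSNHG1#2 (SE, adjusted p = 0.529). The call with shSNHG1#1 was lost without shNC replicate 2 (adjusted p = 0.0579) or 3 (0.0821) or shSNHG1#1 replicate 2 (0.0685).
GSTM3 was barely detected, at 0.18, 0.14 and 0.1 FPKM in shNC, 0.23, 0.59 and 0.27 FPKM with shSNHG1#1 and 0.36, 0.24 and 0.24 FPKM with shSNHG1#2. For GSTM3, log2 fold changes were 1.09 ± 0.36 (SE, adjusted p = 0.0282) with shSNHG1#1 and 0.96 ± 0.36 (SE, adjusted p = 0.0507) with shSNHG1#2. The first call was lost without shNC replicate 1 (adjusted p = 0.0532), 2 (0.0528) or 3 (0.0943) or shSNHG1#1 replicate 2 (0.142, with a log2 fold change of 0.62). The second passed without shSNHG1#1 replicate 1 (0.0414) or 2 (0.0207) and with the replicate block (0.0471). It also passed with scaling by library totals (0.0363), with DESeq2 (0.0498) and in a fit of the 2 groups alone (0.0229).

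Compared directly, the hairpins differed in 11.1% of the 36 genes, beside 3.12% of all features tested. BACH1 alone was higher with shSNHG1#2 than with shSNHG1#1, and PRDX1, TALDO1 and IDH1 were lower, beside 2.00% of all features higher and 1.12% lower. The median log2 difference of the 36 genes was -0.059, beside -0.0018 over all features. Only BACH1 kept its call with each library left out. HMOX1 stood at 71.1, 63.4 and 70.4 FPKM with shSNHG1#1 and 63.9, 58.2 and 61.2 FPKM with shSNHG1#2. It missed the threshold (adjusted p = 0.0974) and passed it without shSNHG1#1 replicate 2 (0.0379). With DESeq2 on all libraries, HMOX1, TKT and TXNRD1 also passed as lower with shSNHG1#2 (adjusted p = 0.0101, 0.00636 and 0.0357).

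In shNC the levels of the 36 genes, per length, ran from TKT at 712 ± 16.7 and NQO1 at 649.8 ± 8.39 FPKM, through PGD at 460.5 ± 3.92 and TXN at 401 ± 10.2, to CBR3 at 5.403 ± 0.626 and GSTM3 at 0.14 ± 0.04 FPKM (SD, n = 3). Neighbours in that order often did not differ beyond their spread. PRDX1 at 350.3 ± 10.4 and GPX2 at 350.2 ± 15.4 did not, nor GSTP1 at 304 ± 6.12 and TXNRD1 at 303 ± 1.99, nor UGDH at 151 ± 2.16 and GCLC at 150.2 ± 1.43. Among the regulators NFE2L2 was the highest and KEAP1 the lowest in shNC. With either hairpin NFE2L2 remained the highest, and MAFF and KEAP1 were the lowest 2, within the spread of each other.

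Other genes of the same pathways, from a list of 137 of which 124 could be tested, rose more often than they fell. With shSNHG1#1, 62 of the 124 rose and 29 fell, beside 24.5% and 23.5% of all features tested. With shSNHG1#2, 52 rose and 33 fell, beside 23.3% and 22.8% of all features. Their median log2 fold changes were 0.14 and 0.13, beside 0.023 and 0.011 over all features. With both hairpins 51 rose and 27 fell, beside 20.3% and 19.7% of all features, and 1 (SOD2, mitochondrial superoxide dismutase, named after its values were seen) moved in opposite directions. Of 22 other glutathione genes tested, 17 rose and 3 fell with shSNHG1#1, and 13 rose and 3 fell with shSNHG1#2, so that 90.9% and 72.7% were called in either direction, beside 48.1% and 46.2% of all features. Of 37 other NRF2 targets, 16 rose and 16 fell with shSNHG1#1, and 13 rose and 14 fell with shSNHG1#2. In either direction 86.5% and 73.0% of them were called, beside the same 48.1% and 46.2%. The other regulators of NRF2 split 5 to 5 of 14 and 5 to 6 of 14, or 71.4% and 78.6% called.
Of 11 other glutathione S-transferases tested, 6 rose and 2 fell with shSNHG1#1, and 5 rose and 2 fell with shSNHG1#2. In either direction 72.7% and 63.6% of these were called, beside 48.1% and 46.2% of all features. Of 20 other thioredoxin and peroxide enzymes, 10 rose and 1 fell with shSNHG1#1, and 8 rose and 5 fell with shSNHG1#2, so that 55% and 65% were called in either direction, beside 48.1% and 46.2% of all features. Of 20 other pentose phosphate and NADPH enzymes, 8 rose and 2 fell with shSNHG1#1, and 8 rose and 3 fell with shSNHG1#2, or 50% and 55% called, near those shares.

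SLC7A11, the cystine importer that supplies glutathione synthesis, averaged 19.3 ± 1.06, 23.4 ± 1.404 and 22.4 ± 1.37 FPKM in shNC, shSNHG1#1 and shSNHG1#2 (SD, n = 3), with log2 fold changes of 0.25 ± 0.051 with shSNHG1#1 (SE, adjusted p = 0.00172) and 0.17 ± 0.051 with shSNHG1#2 (SE, adjusted p = 0.0173). The call of SLC7A11 with shSNHG1#2 was lost without shNC replicate 2 (adjusted p = 0.0938) or shSNHG1#2 replicate 2 (0.0687) or 3 (0.0811). SQSTM1, which draws KEAP1 into autophagy, fell from 525 ± 7.82 FPKM to 388 ± 15.1 and 376 ± 8.32, by log2 fold changes of -0.47 ± 0.030 with shSNHG1#1 (SE, adjusted p = 4.34e-07) and -0.53 ± 0.030 with shSNHG1#2 (SE, adjusted p = 1.95e-07).
TXNIP, an inhibitor of thioredoxin, gave the largest change of the listed genes, at log2 fold changes of 2.56 ± 0.053 with shSNHG1#1 (SE, adjusted p = 6.52e-11) and 2.99 ± 0.052 with shSNHG1#2 (SE, adjusted p = 2.21e-11).

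AKR1B1, aldose reductase, which consumes NADPH, stood at 368, 368 and 369.7 FPKM in shNC, 964, 871 and 962 FPKM with shSNHG1#1 and 799.8, 806 and 792 FPKM with shSNHG1#2, and its log2 fold changes were 1.29 ± 0.035 (SE, adjusted p = 5.13e-10) with shSNHG1#1 and 1.05 ± 0.035 (SE, adjusted p = 2.90e-09) with shSNHG1#2. TIGAR, a phosphatase that steers glucose into the pentose phosphate pathway, stood at 8.18, 8.57 and 8.94 FPKM in shNC, 15.9, 15.4 and 15.2 FPKM with shSNHG1#1 and 14.2, 14.7 and 14.3 FPKM with shSNHG1#2. For TIGAR, log2 fold changes were 1.09 ± 0.044 (SE, adjusted p = 9.91e-09) with shSNHG1#1 and 0.92 ± 0.044 (SE, adjusted p = 5.34e-08) with shSNHG1#2. CTH, which makes cysteine, and ALDH1L2, a mitochondrial folate enzyme that makes NADPH, rose by log2 fold changes of 0.97 ± 0.13 and 0.98 ± 0.066 (SE) with shSNHG1#1 and 0.90 ± 0.13 and 0.92 ± 0.066 with shSNHG1#2.
LAP3, an aminopeptidase, CREBBP, a coactivator of NRF2, and NR0B1, a nuclear receptor, fell. Their log2 fold changes were -1.01 ± 0.028, -0.99 ± 0.036 and -0.93 ± 0.057 (SE) with shSNHG1#1 and -0.80 ± 0.028, -0.86 ± 0.036 and -0.91 ± 0.057 with shSNHG1#2.
GPX3, the secreted peroxidase, stood at 3.22, 3.49 and 3.22 FPKM in shNC, 14.7, 7.41 and 6.95 FPKM with shSNHG1#1 and 5.85, 4.55 and 5.12 FPKM with shSNHG1#2. The highest value was in replicate 1 of shSNHG1#1, the library with the high fibroblast markers. For GPX3, log2 fold changes were 1.47 ± 0.27 with shSNHG1#1 (SE, adjusted p = 1.00e-03) and 0.60 ± 0.28 with shSNHG1#2 (SE, adjusted p = 0.107). Without that library they were 1.01 (adjusted p = 1.35e-04) and 0.59 (adjusted p = 0.00245), so that the first kept its call at a smaller size and the second passed.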

How the data were processed

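RNA was measured by sequencing in 9 libraries, 3 in each of 3 groups taken from the labels. Per the labels' protocols, RNA was extracted with Trizol and libraries followed a BGI protocol. The authors deposited, per the file headers, an estimated count and a length-scaled value for each of 27407 features. That second column is read here as FPKM, since counts, totals and these deposited values together give a near-constant transcript length per gene. The submitters' processing notes name RSEM 1.2.12 and Bowtie2 2.2.5, and also HISAT2 2.0.4 and DESeq2 1.4.5. Not given in the sources used here were the build, annotation and strand setting. Values of overlapping genes and close copies (the MAF genes, CBR1 and CBR3, the glutathione S-transferases) are uncertain.

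Counts, rounded to integers, were tested with edgeR 4.0.16 in R 4.3.3, using TMM scaling, filterByExpr on the groups (18767 features kept), and a quasi-likelihood F test over the 9 libraries with no term but group. P-values were Benjamini-Hochberg adjusted over all features tested, with a threshold of 0.05. Standard errors of log2 fold changes came from the F statistic. FPKM values are scaled to library totals and fitted folds by TMM, and FPKM also carries a transcript length for each library. The 2 can therefore differ, as for GCLM. For NQO1 the implied length was 1488 to 1530 bases in shNC, 1554 to 1629 with shSNHG1#1 and 1597 to 1663 with shSNHG1#2. The ratio of GCLC to GCLM was compared by exact permutation tests. Total counts per library differed little, so depth limits only the lowest genes, such as GSTM3.

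The genes and lists were chosen with earlier results of these data known, so their counts and the tests of the ratio are descriptions. Values in every library are given for NFE2L2, KEAP1, BACH1, GCLC, GCLM and each gene that rose with both hairpins or fell with both, or passed in any comparison with an absolute log2 fold change of at least 0.5. Of the other pathway genes, those named are SLC7A11, TXNIP, SQSTM1 and the 6 largest changes past the threshold per hairpin at a mean log2 CPM of 2 or more. A further gene that the rule names is not reported here. Promoters came from RefSeq (GRCh38.p14). Alternatives were other scalings, DESeq2 1.42.0, no low-count filter, fits of 2 groups, the replicate block, other scales of the ratio, and each library left out.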

Additional observations from a re-analysis of the deposited data

How the results depend on the processing

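Over 108 values (36 genes in 3 comparisons), 6 other settings and 9 libraries left out in turn gave 1620 alternative values. Of these, 1525 kept their side of the threshold, 70 lost the threshold and 25 gained it. None past the threshold in either fit reversed. Among the 1525, 31 values past the threshold in neither fit changed sign. With each library left out, 23 of the 28 genes called with shSNHG1#1, 21 of the 25 with shSNHG1#2 and 1 of the 4 between the hairpins kept their calls.

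With library totals alone, 16 of the 36 genes rose with shSNHG1#2 (9 with TMM), and the median of all features moved by 0.046 (shSNHG1#1) and 0.065 (shSNHG1#2) on the log2 scale. The differences between the hairpins were the least stable. DESeq2 called 6 of the 36 genes lower with shSNHG1#2 than with shSNHG1#1, where edgeR called 3, and with 1 library left out edgeR called 0 to 4. It called 0 without shSNHG1#1 replicate 3, shSNHG1#2 replicate 2 or shSNHG1#2 replicate 3, with 6, 7 and 6 genes lower at an unadjusted p below 0.05. Other pathway genes lower between the hairpins numbered 6 to 9 with 1 library left out (11 with all). Over all features, DESeq2 called 618 higher and 356 lower (375 and 211 with edgeR), leaving out 1 library gave 240 to 342 and 57 to 198, and a fit of the 2 groups gave 110 lower. The cause was not tested.

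Replicate numbers recur across groups, and the labels do not say whether same-numbered libraries share more than a number. Over all features tested, their deviations from the group means were nearly uncorrelated (correlations -0.0361 to 0.0322). Anything shared that touches few genes could go unseen in this check. With the replicate block, 137 features were lower between the hairpins, 3 values of the 36 genes changed their side of the threshold (TALDO1 in both shSNHG1#2 comparisons, and GSTM3), and exact p-values of the pairwise ratios were 0.25. Libraries of 1 group differed by more than counting noise (chi-square per degree of freedom 3.12 to 6.29). GSTM3 alone of the 36 genes stayed below 1 FPKM in every library, and which genes depth limits was not tested.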
